A study of Mus musculus with 6 samples.

Results

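The 9 genes described here make, bind, take up or sense retinoic acid. *Aldh1a1*, *Aldh1a2* and *Aldh1a3* encode the retinaldehyde dehydrogenases, *Crabp1* and *Crabp2* the cellular retinoic acid binding proteins, *Rara*, *Rarb* and *Rarg* the retinoic acid receptors, and *Stra6* a membrane receptor for the retinol carrier. They were chosen by name, and a probe set was taken as a member's where the array annotation gave it that 1 symbol. This gave 12 probe sets for the 9 genes, of 18193 genes named in this way, and 6 of the 9 were bright enough to be tested among 12518 genes. The samples were 3 acinar mammary tumors of *K14-cre*; *ApcCKO/+* mice and 3 control mammary glands of mice that lacked *cre* and were age-matched, each on 1 Affymetrix GeneChip M430 2.0 array. *ApcCKO* is a conditional allele of the tumor suppressor *Apc*. *K14-cre* places the recombinase under the keratin 14 promoter, which is active in mammary progenitor cells and in skin. RNA came from homogenized tissue, so every cell type present contributed to a signal. By the study's account all 3 tumors carried the recombined *Apc* allele together with a truncating mutation in the other allele, and the mice were of mixed background. The sources used here do not give the ages or the *Apc* alleles of the control mice.

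Retinol travels in blood bound to its carrier, enters cells, and is oxidized first to retinaldehyde and then, by the retinaldehyde dehydrogenases, to retinoic acid. *Crabp2* is known to pass retinoic acid to its receptors in the nucleus, where each receptor pairs with a retinoid X receptor on direct repeats of a short half-site. In the mammary gland, retinoids are known for restraining epithelial growth, and *Rarb* is a classical gene induced by retinoic acid through a repeat in its own promoter.

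That repeat is shown because *Rarb* was the receptor whose signal fell. RefSeq promoter windows (build GRCm38.p6), which run from 250 bases before to 50 bases after a start site, were found for 7 of the 9 genes, 15 windows in all. The 250 bases before the *Rarb* start, at chr14:16575477-16575726 on the minus strand, read as follows, with the repeat in capitals.
Rarb: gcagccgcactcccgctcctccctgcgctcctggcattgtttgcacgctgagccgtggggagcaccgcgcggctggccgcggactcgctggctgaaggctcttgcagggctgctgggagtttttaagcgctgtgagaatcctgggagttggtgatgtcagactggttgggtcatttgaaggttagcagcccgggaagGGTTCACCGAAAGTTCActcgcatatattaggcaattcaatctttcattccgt

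The capitals are a DR5, a direct repeat of the half-site with a spacer of 5 bases, which began 53 bases before the start on the strand of the gene. Both strands of each window were searched for DR5, DR1 and DR2, with a half-site that allowed either purine at its first base and G or T at the third. DR5 was found in 32 of 32851 windows (0.0974%), which belonged to 31 of 27025 genes. *Rarb* was the only one of the 7 genes with a DR5 in its windows, and none had a DR1 or a DR2, which 0.222% and 0.268% of all windows held. Among the windows of 31 other retinoid genes, *Cyp26a1*, which encodes a retinoic acid hydroxylase, also had a DR5, on the opposite strand 32 bases before its start. Both elements are set side by side, 5′ to 3′ along the repeat, with the half-sites in capitals.
Rarb: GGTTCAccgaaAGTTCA
Cyp26a1: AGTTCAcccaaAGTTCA
A match of letters is a description of these windows and not a measurement of receptor binding.

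All values below are MAS 5.0 signals on a linear scale, which the authors scaled to the same target on every array. Log2 values were taken after signals below 50 were set to 50, genes were tested where at least 3 of the 6 arrays reached 100, and differences are tumor minus control with limma and Benjamini-Hochberg adjustment over all 12518 genes. A gene is called at an adjusted p under 0.05. Of the 6 genes tested, *Crabp2* was called higher in tumors, and *Aldh1a1*, *Aldh1a2*, *Aldh1a3* and *Rarb* were called lower. Over all genes tested 16.3% were called higher and 16.8% lower. *Aldh1a2*, *Aldh1a3* and *Rarb* passed the filter through the 3 control arrays alone and so had to differ, and the share of genes called among the 6 therefore supports nothing. The groups of all 5 called genes did not overlap, which was also so for 27.1% of all genes in the direction of higher and for 23.1% in that of lower signal. The labels call the samples biological replicates without saying that each came from a separate animal, so the p-values measure the spread between these samples.

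The median signal of the arrays lay between 124.4 and 170.7, and arrays of a group correlated with each other at 0.895 to 0.945 and with the other group at 0.784 or less. *Apc* itself had 4 probe sets, and the one standing for the gene gave 1922.4, 2076.9 and 2148.9 in the control glands and 1922.9, 1525.9 and 2006.1 in the tumors (log2 fold change −0.18, limma adjusted p = 0.534). The sources used here do not say where its probes lie relative to the recombined part, so this checks no label. Some arrays stood apart from their group in marker sums. Control gland 2 had a summed signal of 185552 over 8 skeletal muscle genes, against 6862 and 63364 in the other control glands, and the lowest sum of pan-epithelial genes. Tumor 1 had a muscle sum of 36614 against 1808 and 559 in the other tumors, and control gland 1 a lymphocyte sum of 5434 against 425 and 1747. Called members and pathway genes whose fold moved by over 1.5 times without 1 array, with the tested genes kept, are given below with their values. For the cell type markers such moves are not given.

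**Figure D1:**
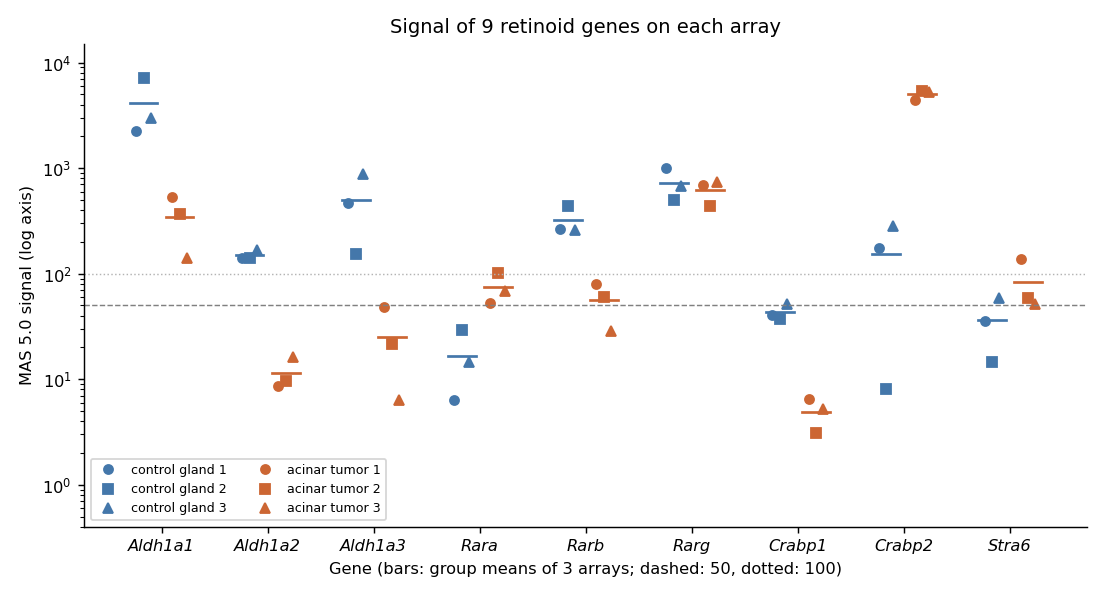
Signal of each of the 9 genes (MAS 5.0 signal, log axis) on the 3 control arrays (blue) and the 3 tumor arrays (orange), with bars at the group means and lines at 50, below which values were set to 50, and at 100, the filter. *Crabp2* lies at 4430.8 or more in every tumor and at 281.9 or less in every control gland, while *Aldh1a1*, *Aldh1a2*, *Aldh1a3* and *Rarb* lie lower in every tumor than in any control gland. For *Aldh1a2*, *Aldh1a3* and *Rarb* this had to be so, since they passed the filter through the control arrays alone.

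The retinaldehyde dehydrogenases were all lower in tumors. *Aldh1a1*, whose product is also a marker of stem-like cells, had signals of 2270.6, 7194.6 and 3006.3 in the control glands and 536.0, 365.0 and 142.1 in the tumors. Every tumor was below every control gland, with control gland 2 the highest and tumor 3 the lowest. The log2 fold change was −3.60 (SE 0.59, limma adjusted p = 0.00418), a 12.1-fold lower signal. Over 23 other settings of the limma test its adjusted p lay between 0.00277 and 0.0353.

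A close relative, *Aldh1a7*, moved in the same way. Its signals were 2672.0, 5139.1 and 3133.7 in the control glands and 148.0, 170.2 and 75.5 in the tumors (log2 fold change −4.82, limma adjusted p = 0.000219 with every probe set tested on its own). Control gland 2 was the highest for both genes. Whether the probes of either gene also read transcripts of the other was not tested.

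*Aldh1a2*, the dehydrogenase known for retinoic acid synthesis in mesenchyme, gave 141.2, 141.4 and 166.9 in the control glands and 8.6, 9.6 and 16.4 in the tumors. The control values lay close together and just above the filter, and all 3 tumors were below 50. The signal was thus at least 2.99-fold lower in tumors (log2 fold change −1.58, SE 0.19, limma adjusted p = 0.00136), a size that the floor sets. The log2 fold change was −3.21 with a floor of 16 and −0.58 with a floor of 100, where the adjusted p was 0.0442.

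*Aldh1a3*, the dehydrogenase most often linked to epithelia, gave 465.1, 152.7 and 873.8 in the control glands and 48.1, 21.5 and 6.4 in the tumors. The control glands spread widely, with control gland 2 the lowest, and all tumors were below 50. The signal was at least 7.92-fold lower in tumors (log2 fold change −2.99, SE 0.57, limma adjusted p = 0.00765). Without control gland 2 the log2 fold change was −3.67. With no filter on low signals the adjusted p was 0.05, which is not under the threshold, and over all limma settings it ran from 0.00126 to that value.

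The other probe sets of *Aldh1a3* were dimmer and failed the filter. One gave 107.3, 32.8 and 208.6 in the control glands and 30.2, 3.5 and 29.1 in the tumors. The other gave 88.0, 20.4 and 101.9 against 17.9, 24.0 and 15.4, and here the groups overlapped through control gland 2. On all 3 probe sets the control glands had the same order, with gland 3 the highest and gland 2 the lowest.

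**Figure D2:**
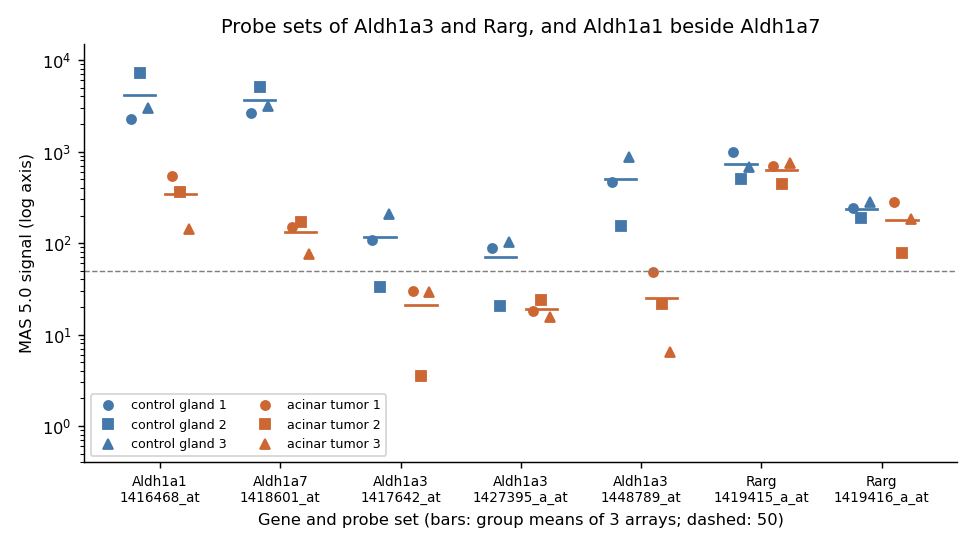
Signal (MAS 5.0, log axis) of the probe sets of *Aldh1a1*, its relative *Aldh1a7*, *Aldh1a3* and *Rarg* on each array, with bars at the group means of 3 arrays and a line at 50. The brightest *Aldh1a3* probe set separates the groups, the dimmest does not, and both *Rarg* probe sets overlap between the groups. The brightest *Aldh1a3* probe set passed the filter through the control arrays alone, so its separation was fixed in advance.

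Of the binding proteins only *Crabp2* was tested, and it was higher in tumors. *Crabp2*, the binding protein that delivers retinoic acid to receptors, had signals of 175.4, 8.1 and 281.9 in the control glands and 4430.8, 5325.2 and 5289.6 in the tumors. The tumors were close to each other, and the lowest of them lay far above the highest control gland. The log2 fold change was 5.21 (SE 0.58, limma adjusted p = 0.000976), a 37.0-fold higher signal with the value of control gland 2 set to 50. It ranked 12 of 12518 genes by size of increase. Without control gland 2 the log2 fold change was 4.49, and over 23 other limma settings the adjusted p lay between 0.000173 and 0.0157.

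*Crabp1*, its paralog, known to bind retinoic acid in the cytoplasm, failed the filter and was not tested. Its signals were 40.5, 37.3 and 51.7 in the control glands and 6.5, 3.1 and 5.2 in the tumors. The groups did not overlap, but only 1 of the 6 values was above 50, so no fold is given.

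Of the receptors, *Rarb* was lower in tumors and *Rarg* was not called. *Rarb*, the receptor with the DR5 shown above, gave 267.7, 442.1 and 259.6 in the control glands and 79.5, 60.6 and 28.6 in the tumors. All tumors lay below all control glands, and 1 tumor was below 50. This separation was fixed in advance, since *Rarb* passed the filter through the control arrays alone. The log2 fold change was −2.33 (SE 0.30, limma adjusted p = 0.00159), a 5.03-fold lower signal with that tumor set to 50. The log2 fold change was −1.65 with a floor of 100. Over 20 other limma settings the adjusted p lay between 0.00123 and 0.0136.

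*Rarg*, the receptor best known in skin and other epithelia, gave 993.9, 499.4 and 677.9 in the control glands and 691.7, 437.7 and 742.2 in the tumors. The groups overlapped (log2 fold change −0.19, SE 0.33, limma adjusted p = 0.684), and the sign turned to 0.04 when the arrays were set to equal medians. Its second probe set gave 240.9, 189.0 and 282.5 against 283.2, 77.4 and 181.0, which also overlapped (log2 fold change −0.57, limma adjusted p = 0.393). These values do not show that *Rarg* was equal in both groups.

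*Rara*, the most widely expressed of the receptors, was not tested. Its signals were 6.4, 29.3 and 14.6 in the control glands and 53.1, 101.9 and 68.7 in the tumors. The groups did not overlap, but all control values were below 50 and only 1 tumor passed 100. With no filter the log2 fold change was 0.52 (limma adjusted p = 0.247).

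The uptake receptor *Stra6* was likewise too dim to test. Its signals were 35.5, 14.7 and 58.2 in the control glands and 138.9, 58.9 and 51.8 in the tumors. Tumor 1 was the highest, and tumor 3 lay below control gland 3. With no filter the log2 fold change was 0.51 (limma adjusted p = 0.498).

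Whether members of a family changed unequally was asked in 7 pairs, from the difference of the paralogs' log2 signals on each array. An exact permutation test of 3 against 3 arrays, 2-sided, cannot give a p under 0.1, so no pair could pass a threshold of 0.05. *Rarb* minus *Rarg* was −1.89, −0.18 and −1.38 in the control glands and −3.12, −2.85 and −3.89 in the tumors, 2.14 lower in the mean and without overlap (exact permutation p = 0.1, adjusted over the 7 pairs 0.14). *Rarb* passed the filter through the control arrays alone, so its tumor signals had to be lower and this separation supports nothing. In this pair 1 signal stood at the floor. *Crabp1* minus *Crabp2* was −1.81, 0.00 and −2.45 against −6.47, −6.73 and −6.73, also without overlap at the same p, though 6 of its 12 signals stood at the floor of 50. *Aldh1a1* minus *Aldh1a3* did not separate the groups (mean difference −0.61, exact permutation p = 0.8), and its sign turned with a floor of 16 (0.36). *Rara* minus *Rarg* overlapped between the groups as well (mean difference 0.72, exact permutation p = 0.4). The other 3 pairs did not overlap (exact permutation p = 0.1 each), but each had values at the floor: *Aldh1a1* minus *Aldh1a2* differed by −2.02, *Aldh1a2* minus *Aldh1a3* by 1.41 and *Rara* minus *Rarb* by 2.86. Each also held *Aldh1a2* or *Rarb*, which passed the filter through the control arrays alone.

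The genes whose log2 signal followed a called gene most closely over the 6 arrays are given as a description, since any gene that separates the groups well scores high. *Cavin3* and *Gcnt2* were most like *Aldh1a1* (Pearson r = 0.999 and 0.998). *C1qtnf7* and *Meis2* were most like *Aldh1a2* (both 1.00 after rounding), and *Grik3* and *Aox3* most like *Aldh1a3* (likewise 1.00). All tumor signals of *Aldh1a2*, *Aldh1a3* and *Meis2* lay below the floor and were set to the same value. An r with *Aldh1a2* or *Aldh1a3* thus cannot show a shared order among the tumors. *Nuak1* and *Gpr137b* were most like *Rarb* (both 0.999). *Emid1* and *Exosc2* followed *Crabp2* (0.999 and 0.998). For *Crabp2* 772 genes had an r over 0.95, and for *Aldh1a3* only 75 did.

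The wider pathway list held 50 other genes, of which 44 were found under 1 symbol, 12 failed the filter and 32 were tested. Of these 3 (9.38%) were called higher and 12 (37.5%) lower, beside the 16.3% and 16.8% of all genes given above, and 17 were not called. *Lrp2*, *Hoxb4*, *Meis2* and *Stra8* passed the filter through the control arrays alone and *Stra6l* through the tumor arrays alone, so 4 of the 15 calls had to differ and these shares support nothing. The median log2 fold change was −0.62 over the list and 0.07 over all genes tested. With single arrays left out and the tested genes kept, a choice made on all 6 arrays, 7 of the 15 calls were lost in at least 1 of the 6 fits (*Lrp2*, *Rdh5*, *Rdh11*, *Cyp26b1*, *Rxrg*, *Tgm2* and *Gprc5a*). Setting the arrays to equal medians moved the median of all genes to 0.31 and the share of calls that were higher from 49.4% to 64.5%, and the pathway then had 5 genes higher and 9 lower.

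**Figure D3:**
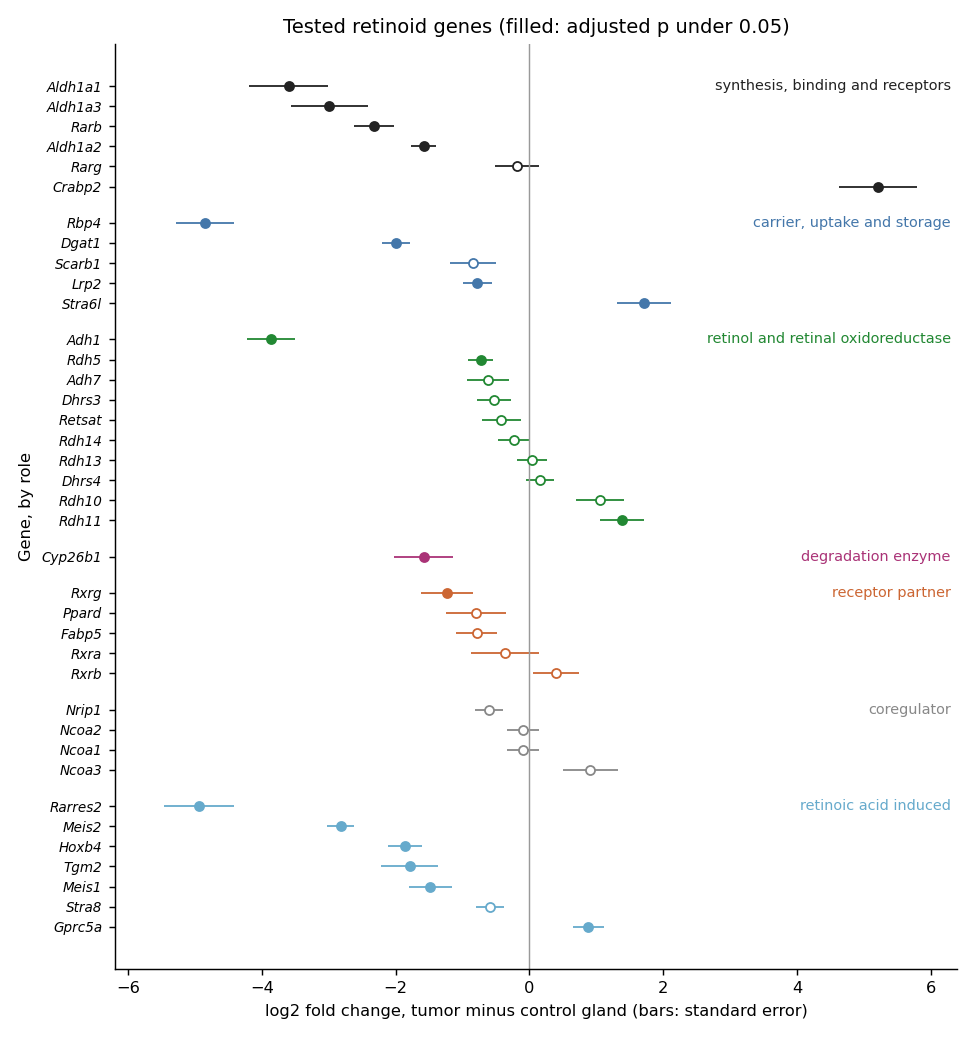
Log2 fold change (tumor minus control gland, bars are the standard error) of the 6 tested genes of synthesis, binding and receptors and of 32 other retinoid genes by role. Filled points passed an adjusted p of 0.05. Most called genes lie to the left of 0, and *Crabp2* is the furthest to the right at 5.21. *Aldh1a2*, *Aldh1a3*, *Rarb*, *Lrp2*, *Hoxb4* and *Meis2* passed the filter through the control arrays alone and had to lie to the left. *Stra6l* passed it through the tumor arrays alone and had to lie to the right. The excess on the left thus supports nothing. Of all genes tested, 16.3% were called higher and 16.8% lower.

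Of 11 genes of carriage, uptake and storage 5 were tested. Of these 3 (60%) were called lower and 1 (20%) higher, beside 16.8% and 16.3% of all genes. *Lrp2* passed the filter through the control arrays alone and *Stra6l* through the tumor arrays alone. These calls had to differ, so the shares support nothing. *Rbp4*, the blood carrier of retinol, had signals of 4511.0, 8163.7 and 5138.4 in the control glands and 102.8, 255.0 and 299.3 in the tumors, a 28.9-fold lower signal (log2 fold change −4.85, SE 0.44, limma adjusted p = 0.000445). Every tumor was far below every control gland. *Dgat1*, which can esterify retinol but is best known for triglyceride synthesis, fell by 2.00 on the log2 scale (limma adjusted p = 0.000731), and *Lrp2*, an endocytic receptor, by 0.78 (limma adjusted p = 0.0321), a call lost in 4 of the 6 fits that left out 1 array. *Stra6l*, a retinol carrier receptor related to *Stra6*, rose, with 61.3, 68.1 and 78.1 in the control glands and 165.5, 159.5 and 434.8 in the tumors (log2 fold change 1.71, limma adjusted p = 0.0163). Tumor 3 was the highest of these. *Ttr*, the partner of the carrier in blood, failed the filter and reached 1564.2 in tumor 3 alone among values of 181.1 or less.

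Among 10 tested oxidoreductases of retinol and retinaldehyde, 2 fell (20%), 1 rose (10%) and 7 were not called, near the 16.8% and 16.3% of all genes. *Adh1*, an alcohol dehydrogenase that can oxidize retinol, gave 3683.6, 2978.3 and 4513.0 in the control glands and 154.5, 268.4 and 393.3 in the tumors (log2 fold change −3.86, SE 0.36, limma adjusted p = 0.000517). The highest tumor was far below the lowest control gland. *Rdh5*, a retinol dehydrogenase best known in the eye, fell by 0.73 (limma adjusted p = 0.0233), a call lost in 5 of the 6 fits that left out 1 array. *Rdh11*, a retinaldehyde reductase, rose by 1.38 (limma adjusted p = 0.0183), and its call was lost without tumor 1 or tumor 2. *Rdh10*, the main retinol dehydrogenase of the embryo, gave 861.0, 736.4 and 778.3 in the control glands and 2756.1, 1640.4 and 999.0 in the tumors and was not called (log2 fold change 1.06, limma adjusted p = 0.0591). The groups did not overlap, but the tumors spread widely. *Dhrs3*, which reduces retinaldehyde back to retinol, was not called either (log2 fold change −0.53, limma adjusted p = 0.157).

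*Cyp26b1*, a hydroxylase that clears retinoic acid, was lower in tumors. Its signals were 351.8, 276.9 and 312.9 in the control glands and 144.1, 159.7 and 44.9 in the tumors (log2 fold change −1.58, limma adjusted p = 0.0306), and the call was lost without any 1 of the control glands. *Cyp26a1*, the hydroxylase with the other DR5, failed the filter, with signals from 44.2 to 92.5 in control glands and from 51.4 to 88.0 in tumors.

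Of the receptor partners, *Rxrg* was lower (log2 fold change −1.23, limma adjusted p = 0.0463), with 172.3, 476.1 and 251.3 in the control glands and 100.2, 150.7 and 106.6 in the tumors, and this call was lost in 5 of the 6 fits that left out 1 array. *Rxra* and *Rxrb*, the other retinoid X receptors, were not called (log2 fold changes −0.37 and 0.40, limma adjusted p = 0.606 and 0.396). *Fabp5*, which can carry retinoic acid to another receptor, was not called (log2 fold change −0.79, limma adjusted p = 0.0913). None of 4 tested coregulators was called by limma or by the methods' t-test, and 1 had an unadjusted p under 0.05. Of all genes tested, limma called 16.3% higher and 16.8% lower, and 4 genes are too few to set against these shares.

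Of 7 tested genes listed as induced by retinoic acid, 5 fell (71.4%), 1 rose (14.3%) and 1 was not called, beside 16.8% and 16.3% of all genes. *Hoxb4*, *Meis2* and *Stra8* passed the filter through the control arrays alone, so their tumor signals had to be lower. The shares of this group therefore support nothing. *Rarres2*, which encodes the adipokine chemerin, had signals of 5122.6, 7637.3 and 3890.7 in the control glands and 223.3, 310.0 and 76.1 in the tumors (log2 fold change −4.94, SE 0.53, limma adjusted p = 0.000799), and the fold change was −4.34 without tumor 3. *Meis2*, a homeobox gene, gave 335.1, 323.6 and 410.0 against 44.3, 33.5 and 4.8, at least 7.09-fold lower since all tumors were below 50 (limma adjusted p = 0.000175). *Hoxb4* and *Meis1*, also homeobox genes, fell by 1.86 and 1.48 (limma adjusted p = 0.00225 and 0.0116), and *Tgm2*, a transglutaminase, by 1.79 (limma adjusted p = 0.0179, lost without control gland 1 or 2). *Gprc5a*, an orphan receptor, rose by 0.88 (limma adjusted p = 0.0239), a call that was lost in 5 of the 6 fits that left out 1 array. Several genes of this group also have other regulators.

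Several lists of cell type markers also differed between the groups. The counts of called markers are those of the main setting and stand beside the 16.3% of all genes called higher and the 16.8% called lower. In whole tissue, fewer cells of a type and less RNA per cell cannot be told apart. All 8 tested adipocyte markers were lower in tumors, and their summed signal was 125398 to 164444 in the control glands and 1570 to 11194 in the tumors. The brightest were *Fabp4* and *Adipoq*, with log2 fold changes of −3.46 and −6.85 (limma adjusted p = 0.0130 and 0.00418). Of 11 fibroblast and matrix genes, led by *Dcn* and *Col3a1*, 10 were lower, with sums of 66875 to 79129 and 2604 to 15744. Over 23 other limma settings *Dcn* kept its call in 23 and *Col3a1* in 11. Of 10 endothelial genes, led by *Esam* and *Emcn*, 8 were lower, with sums of 8375 to 10492 and 1760 to 4114. Here *Esam* kept its call in 16 of the 23 settings and *Emcn* in 20. No tested marker of these 3 lists was below 50 in all 3 tumors, but *Cidec* and *Lep* were in 2 of the 3. Their control signals were 2467.5 or more, against 166.9 or less for *Aldh1a2*.

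Pan-epithelial genes moved the other way. Of 12 tested, 10 were higher and none lower, with *Krt18* and *Krt8* the brightest, and their sums were 11994 to 26844 in the control glands and 77208 to 101746 in the tumors. Luminal genes were split, with 2 of 8 higher (25%) and 3 lower (37.5%). Of 8 basal genes 3 were higher (37.5%) and 1 lower (12.5%). Of 7 macrophage genes 3 were lower, and none of 8 skeletal muscle genes was called by limma or the methods' t-test (2 had an unadjusted p under 0.05), at sums of 6862 to 185552 against 559 to 36614. The remaining lists were pericyte (3 of 6 lower), lymphocyte (2 of 3 lower) and Schwann cell (1 of 3 higher and 1 lower). Of the called markers, *Vwf* (endothelium), *Cd79b* and *Ms4a1* (lymphocyte) passed the filter through the control arrays alone. *Spdef* (luminal) passed it through the tumor arrays alone. These calls had to differ and support nothing, nor does the lymphocyte count.

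**Figure D4:**
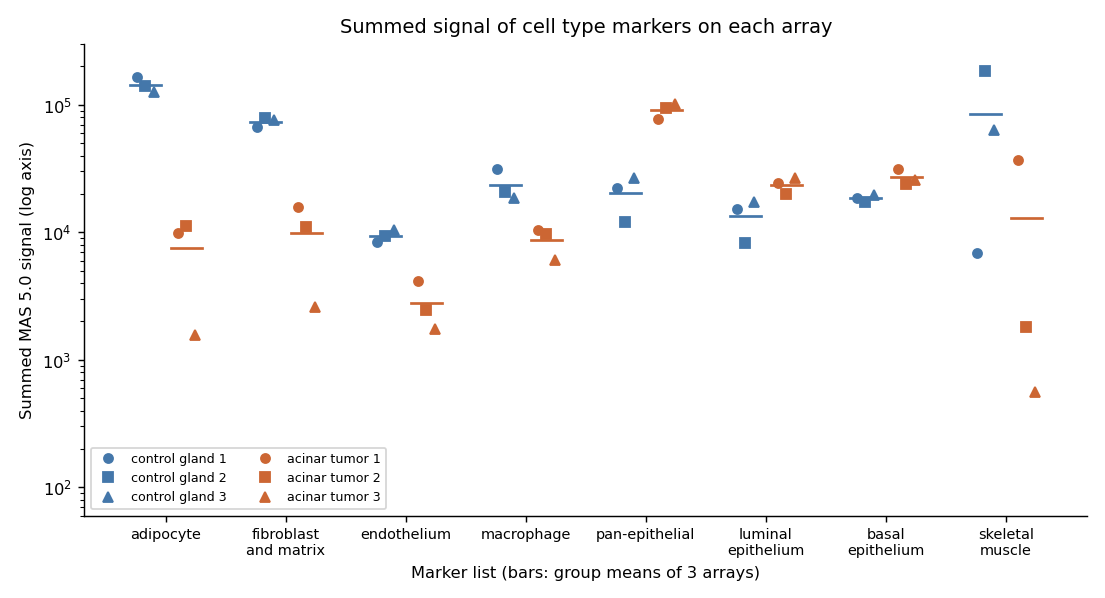
Summed signal (MAS 5.0, log axis) of the tested markers of 8 cell types on each array, control glands in blue and tumors in orange, with bars at the group means of 3 arrays. Adipocyte, fibroblast and endothelial sums are lower and pan-epithelial sums higher in every tumor than in any control gland, and the muscle sum is highest in control gland 2.

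The orders of single arrays are given beside this. *Aldh1a3*, *Crabp2* and the pan-epithelial, luminal and basal sums had the same order over the control glands, with gland 3 the highest and gland 2 the lowest. *Aldh1a1*, the fibroblast sum and the skeletal muscle sum had one order in both groups, with gland 2 above gland 3 and gland 1, and tumor 1 above tumor 2 and tumor 3. *Rarb* had that order in tumors only, as had the endothelial, pericyte and macrophage sums. Of the called genes *Crabp2* rose with the pan-epithelial sum between the groups, while *Aldh1a3* fell. With 3 arrays a group these orders are a description, and the part of tissue makeup in the fold changes was not tested.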

How the data were processed

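RNA of 3 control mammary glands and 3 acinar mammary tumors was measured on 6 arrays, and groups and replicate numbers came from the sample titles. Deposited values are linear intensities, which the authors derived with MAS 5.0 (named in the submitters' processing notes) in GCOS; the sources used here give no GCOS version. The authors also scaled each array to a common target. Depth does not apply to arrays, and their number limits the precision. Of 45101 probe sets 64 controls were left out, and 34945 had 1 gene symbol in the platform annotation, 932 several and 9160 none; only the first were used. A floor of 50 was set before taking log2. Probe sets at 100 or more on at least 3 of 6 arrays were kept, and each of 12518 genes was represented by its brightest (by mean log2 signal). The groups were compared in R 4.3.3 with limma 3.58.1 (lmFit, then eBayes), 2-sided, with Benjamini-Hochberg adjustment at 0.05 and no fold limit. Paralog pairs were compared with an exact permutation test in SciPy 1.17.1. The limma step was tested on simulated data of genes already past the filter. The filter, the choice of probe set and the permutation test were not part of that.

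The members, the lists of pathway genes and cell type markers, and the settings were chosen with earlier results of these data known. The text names all members, every called pathway gene with uncalled ones where a role needs them, the 2 genes most like each called member, and the 2 brightest markers of the main lists; *Aldh1a7* and *Ttr* were added after their values were seen. Other settings tried were a filter at 200 or none, floors of 100 and 16, 50 added to the signal in place of a floor, arrays normalized by quantiles or to equal medians, the replicate number as a block, a trend in the variance, all probe sets on their own or averaged by gene, leaving out those that may cross-hybridize, a 2-fold limit, the methods' t-test on linear signals, and each array left out in turn. Leaving out arrays with the tested genes kept was added after seeing the data. Same-numbered arrays did not deviate together (r = −0.222, 0.021 and 0.038), so numbers were not taken to pair samples. Promoter windows are from RefSeq (GRCm38.p6).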

Additional observations from a re-analysis of the deposited data

How the results depend on the processing

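*Crabp2* was called higher under every limma setting run and at the methods' t-test's own threshold, but not after adjustment of that test. Of the genes called lower, 4 in the main setting, 2 were called with the filter at 200, where *Aldh1a2* and *Aldh1a3* were no longer tested, and 1 (*Aldh1a2*) by the methods' t-test at its own threshold. After Benjamini-Hochberg adjustment that test called no member and 67 genes higher and 73 lower of 12518, against 685 and 920 at its own threshold and 2045 and 2098 with limma. Leaving out 1 array gave 1 to 4 genes lower, with 1 whenever a control gland was left out, because *Aldh1a2*, *Aldh1a3* and *Rarb* then failed the filter. With the tested genes kept it was 4 in each of 6 fits, but those 3 genes are kept because of the control arrays, so this says nothing about stability. *Rarg* turned to 0.04 with equal array medians and lay between −0.43 and 0.06 with 1 array left out. Pathway genes called higher, 3 in the main setting, were 5 with equal array medians, 1 with no filter and 0 with the methods' t-test, and 0 to 3 with 1 array left out, where 1 was left without tumor 2 with the tested genes kept. Pathway genes called lower, 12 in the main setting, were 5 to 11 with 1 array left out. With the replicate number as a block 1630 genes were higher and 1860 lower, members stayed at 1 higher and 4 lower, and pathway genes were 2 higher and 10 lower. Among pairs, *Aldh1a1* minus *Aldh1a3* turned from −0.61 to 0.36 with a floor of 16 and was −1.61 with a floor of 100, *Aldh1a1* minus *Aldh1a2* was −2.02, −0.38 with a floor of 16 and −3.02 with a floor of 100, *Rara* minus *Rarb* 2.86, 4.48 and 1.66, and with a floor of 16 *Rara* minus *Rarg* was 2.07 and *Crabp1* minus *Crabp2* −7.17. Signals near 50 limit *Aldh1a2*, *Aldh1a3*, *Rara*, *Crabp1* and *Stra6*.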
